A study of Mus musculus with 7 samples.

Results

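Transcripts of 9 complement genes, C1s, C4b, C2, Serping1, Cfd, Cfb, C3, C6 and C7, were measured in the skin of mice fed glucosylceramide (GC) or a diet without it, with and without a detergent on the skin. They were found by gene name among the spots that were not controls, and all 9 had a probe, of 17111 genes tested in all. C7 was found under an older name, A530026G17, and C1s is the gene now listed as C1s1. Each of 7 arrays carried labelled RNA from a GC-fed and from a control-fed skin, so each array gave 1 diet ratio per gene. The groups were GC-fed skin after SDS (4 samples), control-fed skin after SDS (4), GC-fed skin before SDS (3) and control-fed skin before SDS (3). The mice were males of the hairless HR-1 strain, aged 5 weeks, on AIN-93G diet with or without GC, and the skin was that of the back. The before-SDS skin was taken at 12 days of diet. The after-SDS skin was taken at 14 days, after 2 daily treatments of 5 minutes with 10% sodium dodecyl sulfate (SDS), a detergent that damages the skin barrier. The labels speak of biological replicates without saying whether a sample was 1 animal or a pool, so errors and p-values describe the spread between these samples. The labels do not say whether untreated skin of the same mice was used before SDS.

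Complement is a cascade of blood and tissue proteins that tags microbes and damaged cells and draws in immune cells. The classical pathway starts with C1q, C1r and C1s and the lectin pathway with mannose-binding proteins and their proteases; both cleave C4 and C2. The alternative pathway runs on factors B and D, every pathway meets at C3, and C5 to C9 then form a pore in the target membrane. The liver makes most of the complement in blood, while keratinocytes, fibroblasts, macrophages and fat cells of the skin make several components locally.

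Each diet value is the log2 of the GC-fed over the control-fed signal on 1 array, so a negative value means lower in GC-fed skin, and levels are log2 intensities of a probe, which can be compared between samples but not between genes. Every probe used for the 9 genes was well above background in 14 of 14 channels, and 0 spots were saturated. The 9 genes were chosen with these ratios and levels in view, so their values are given as a description, with the standard error (SE) of the fit and with no p-value. Where the members past a threshold are counted, the share of all genes past it stands beside the count, and nothing is read from the count. After-SDS array 4 ran against the others of its group: over all genes, which are not independent replicates, the correlation of its ratios was -0.5 with array 1, -0.62 with array 2 and -0.3 with array 3, while arrays 1 to 3 had 0.31 to 0.5 among themselves. Before SDS the correlation was -0.41 between arrays 1 and 2, -0.19 between arrays 1 and 3 and 0.23 between arrays 2 and 3. GC-fed skin carried Cyanine-3 on before-SDS array 1 and Cyanine-5 on before-SDS arrays 2 and 3. After SDS it carried Cyanine-3 on arrays 1 and 2 and Cyanine-5 on arrays 3 and 4. Before-SDS array 1 thus differed from the others of its group in dye too, and the part of the dye in these correlations was not tested. The labels state the dye of every sample, so the labelled direction was kept for each array, and whether the 2 samples of array 4 carry each other's label was not tested. The before-SDS arrays were on 1 slide and the after-SDS arrays on another, so an effect of SDS and one of the slide or of its scan cannot be told apart.

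RefSeq promoter windows (build GRCm38.p6, 250 bases before to 50 after the annotated start) were at hand for 5 of the 9 genes. The window of C3 is shown because C3 had the widest spread of diet ratios among the genes that moved together. That of C7 is shown because C7 had the opposite sign to C3 on the after-SDS arrays, though at only 0.03 on array 1. Capitals mark matches, on either strand, to TTGCNNAA, a core of the binding sequence of C/EBP factors, to TTCNNNGAA, a core of that of STAT factors, or to TATAAA. C3 lies at chr17:57228087-57228386 and C7 at chr15:5063724-5064023, both on the minus strand and printed 5′ to 3′ as transcribed.
C3: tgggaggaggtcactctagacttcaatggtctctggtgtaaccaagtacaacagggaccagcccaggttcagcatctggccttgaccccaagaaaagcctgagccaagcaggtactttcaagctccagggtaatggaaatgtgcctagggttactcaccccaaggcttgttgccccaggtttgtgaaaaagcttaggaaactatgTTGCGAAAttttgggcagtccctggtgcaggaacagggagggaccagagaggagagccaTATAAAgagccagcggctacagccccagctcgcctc
C7: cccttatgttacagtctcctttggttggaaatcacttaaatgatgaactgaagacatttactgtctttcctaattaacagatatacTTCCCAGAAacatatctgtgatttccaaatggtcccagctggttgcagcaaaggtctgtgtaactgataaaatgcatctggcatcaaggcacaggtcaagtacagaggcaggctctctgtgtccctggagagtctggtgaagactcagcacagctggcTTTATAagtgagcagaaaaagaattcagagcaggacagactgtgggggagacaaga
In the C3 window TTGCNNAA began at -45 from the start, and TATAAA began at 15, after the start. The C7 window held TTCNNNGAA, beginning at -164, and TATAAA on the opposite strand, beginning at -6. Over all 32851 windows of this length, TTGCNNAA occurred in 10.8%, TTCNNNGAA in 8.3% and TATAAA in 13.6%, and the marked letters in C3 and C7 do not overlap. A match of this kind is a description of the sequence and not a binding site.

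C3, the protein on which every complement pathway converges, was lower in GC-fed skin on 6 of 7 arrays and higher on 1. After SDS its log2 diet ratio was -1.30, -0.97 and -2.07 on arrays 1, 2 and 3, which is 40.7%, 51.2% and 23.8% of the control-fed level, and 1.38, or 260% of it, on array 4. Before SDS the ratio was -0.44, -0.36 and -0.43, or 73.9%, 77.7% and 74.4% of the control-fed level. The before-SDS ratios were negative on each array and close to each other, while the after-SDS ratios were larger and split in sign. The fit gave -0.74 (SE 0.485) after SDS and -0.49 (SE 0.573) before SDS. The second SE is wide because the 7 arrays share 1 estimate of spread, and without the dye term the before-SDS value was -0.41. Leaving out array 4 gave -1.52 (SE 0.157) after SDS and -0.33 before SDS, and leaving out array 3 gave -0.08 after SDS. Leaving out before-SDS array 1 gave -0.79 before SDS. With the mean over its 2 probes C3 was at -0.41 after SDS and -0.29 before SDS.

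The level of C3 after SDS was 14.96, 15.27, 14.52 and 16.44 in GC-fed skin, against 16.26, 16.24, 16.59 and 15.07 in control-fed skin, so that the 2 diets overlapped through array 4 alone. Before SDS it was 15.15, 15.22 and 15.25 in GC-fed skin, against 15.59, 15.59 and 15.67 in control-fed skin, with no overlap. By group mean the order was control-fed after SDS (16.04 ± 0.67, SD, n = 4), control-fed before SDS (15.62 ± 0.049, SD, n = 3), GC-fed after SDS (15.3 ± 0.83, SD, n = 4) and GC-fed before SDS (15.21 ± 0.049, SD, n = 3), and neighbours in this order differed by less than the larger of their 2 SDs. The C3 probe was printed in 10 spots, which were averaged. A second, dim C3 probe, well above background in 13 of 14 channels, had ratios of -0.108, 0.258, -0.935 and 0.476 after SDS and 0.085, -0.379 and -0.157 before SDS, so the 2 probes differed in sign on array 2 after SDS and on array 1 before SDS.

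Cfb and Cfd, the proteases of the alternative pathway, went with C3 on most arrays. Cfb, factor B, was at -0.56, -0.60, -1.13 and 0.83 on arrays 1 to 4 after SDS and at -0.25, -0.23 and -0.34 before SDS. Its sign was that of C3 on each of the 7 arrays at a smaller size. Cfb fitted at -0.37 (SE 0.28) after SDS and -0.32 (SE 0.331) before SDS. Its after-SDS value was -0.81 without array 4 and 0.0044 without array 3, and its before-SDS value was -0.50 without before-SDS array 1. Cfd, factor D or adipsin, an enzyme that cleaves factor B and is made in quantity by fat cells, was at -0.87, -0.39, -0.79 and 0.38 after SDS and at -0.56, 0.42 and -0.64 before SDS. Unlike C3 and Cfb, Cfd was higher in GC-fed skin on before-SDS array 2. Cfd fitted at -0.42 (SE 0.232) after SDS, or -0.66 without array 4 and -0.17 without array 3. Before SDS it fitted at -0.33 (SE 0.275), or -0.60 without before-SDS array 2 and -0.07 without before-SDS array 3. Its level averaged 16.37 ± 0.27 in GC-fed and 16.78 ± 0.31 in control-fed skin after SDS (SD, n = 4 each).

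The classical pathway genes C1s and C2 were lower in GC-fed skin on arrays 1 to 3 after SDS and mixed in sign before SDS. C1s, the protease of C1 that cleaves C4 and C2, was at -0.50, -0.64, -1.16 and 0.55 on arrays 1 to 4 after SDS and at -0.22, -0.34 and 0.21 before SDS. C2, the protease that C1s activates, was at -0.58, -0.12, -0.31 and 0.16 after SDS and at -0.05, -0.11 and 0.10 before SDS, the narrowest range of the 9 genes. Both changed sign on array 4. The fitted values after SDS were -0.44 (SE 0.251) for C1s and -0.21 (SE 0.111) for C2. Without array 4 they were -0.80 for C1s and -0.33 for C2, without array 3 they were -0.09 for C1s and -0.13 for C2, and C2 was at -0.10 without array 1. A second probe of C1s had the same sign as the first on all 7 arrays, at -0.091, -0.535, -1.26 and 0.407 after SDS. A second probe of C2 had ratios of -0.295, 0.152, -0.677 and 0.057 after SDS, and of 0.082, -0.172 and 0.087 before SDS, so it differed in sign from the first on array 2 after SDS and on array 1 before SDS.

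Serping1, the C1 inhibitor that blocks C1s, had a mixed sign after SDS, at -0.13, 0.17, -0.87 and 0.41 on arrays 1 to 4. Before SDS it was at -0.02 and -0.21 on arrays 1 and 2, and its spot on array 3 was marked as an outlier by the scanner software and left out. The fit gave -0.11 (SE 0.203) after SDS and -0.12 (SE 0.287) before SDS, the second from 2 ratios. Without array 4 the after-SDS value was -0.38, and without array 3 it was 0.17. In the fit of single channels the missing spot was imputed.

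C6 and C7, which bind in turn to build the membrane pore, had diet ratios of opposite sign on the 4 arrays after SDS. On array 1 the C7 ratio was at only 0.03, so the opposition there rests on a value close to 0. C6 was at -0.23, -0.40, -1.08 and 0.61 after SDS and at -0.11, -0.47 and -0.36 before SDS, with the sign of C3 on each of the 7 arrays. C7 was at 0.03, 0.90, 0.77 and -0.51 after SDS and at -0.85, -0.13 and 0.36 before SDS. C7 was therefore the gene with ratios above 0 on each of the after-SDS arrays 1 to 3, barely so on array 1, and its sign before SDS was mixed. In the authors' deposited values, C7 was at 0, 0.318, 0.583 and -0.773 on after-SDS arrays 1 to 4. There C6 was at -0.931, -0.438, -1.19 and 0.64. The fits gave -0.27 (SE 0.242) for C6 and 0.30 (SE 0.277) for C7 after SDS, and -0.30 (SE 0.287) for C6 and -0.24 (SE 0.328) for C7 before SDS. After SDS C6 was at -0.66 without array 4 and 0.05 without array 3, and C7 was at 0.67 without array 4, 0.14 without array 3 and 0.0071 without array 2. With processed signals the after-SDS values were -0.48 for C6 and 0.65 for C7. Before SDS C6 was at -0.45 and C7 at 0.28 without before-SDS array 1, and C7 was at -0.49 without before-SDS array 3.

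**Figure D1:**
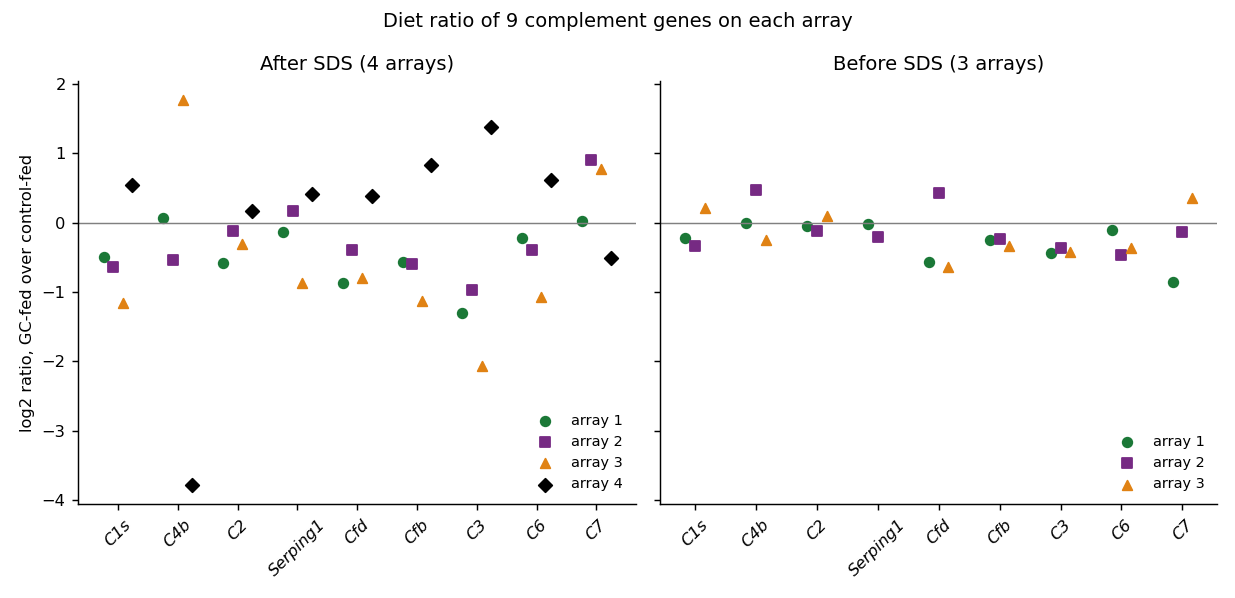
Diet ratio on a log2 scale, GC-fed over control-fed (vertical axis), for each of the 9 complement genes (horizontal axis), after SDS on the left and before SDS on the right, with 1 symbol per array. On after-SDS array 4 (black diamonds) C1s, C2, Cfd, Cfb, C3 and C6 lie above 0 and on arrays 1 to 3 below it, C4b spans -3.79 to 1.76, and the before-SDS ratios lie between -0.85 and 0.47, with no value for Serping1 on array 3.

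Over the 9 genes, the median diet ratio was -0.497, -0.4, -0.871 and 0.41 on after-SDS arrays 1 to 4 and -0.223, -0.212 and -0.297 on the before-SDS arrays. The median of all genes lay between -0.021 and 0.021 on the 7 arrays. After SDS 7, 7, 7 and 2 of the 9 genes were below 0 on arrays 1 to 4, and before SDS 9 of 9, 7 of 9 and 5 of 8 were. C1s, C2, Cfd, Cfb, C3 and C6 were below 0 on arrays 1 to 3 and above 0 on array 4 after SDS, a pattern that 17.2% of all genes had. C3, Cfb and C6 were below 0 on 3 of 3 before-SDS arrays (9.61% of all genes) and on 6 of 7 arrays in all (6.14% of all genes). Before SDS the groups did not overlap between diets for Serping1, C3 and C6 (5.61% of all genes, which include those higher in GC-fed skin). After SDS 0 of the 9 genes were without overlap (1.56% of all genes). Serping1 had 2 samples per diet before SDS, at 13.95 and 14.13 against 14.15 and 14.16, while the 5.61% covers genes with 3. Since the genes were chosen on these ratios, nothing is read from these counts.

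At an adjusted p of 0.05 (limma, Benjamini-Hochberg over all genes), 0 of the 9 genes passed for diet after SDS, before SDS, or in the difference between the 2, and the share of all genes that passed was 0% in each. An unadjusted p under 0.05 was reached by 763 genes after SDS, 68 before SDS and 207 for the difference. The median fitted value of the 9 genes was -0.366 after SDS, -0.24 before SDS and -0.0846 for after minus before SDS, with the median of all genes at -0.000721, -0.00223 and -0.00418. Without after-SDS array 4, singled out because it opposed the rest, 3.95% of all genes passed as lower in GC-fed skin after SDS and 1.46% as higher, and C1s, Cfb, C3 and C6 were among the lower ones. Both the members and the array left out were chosen with these ratios in view, so nothing is read from that count. In that fit the 9 genes had a median of -0.657 after SDS, and 0 of them passed for the difference between after and before SDS. Without array 3 instead, the median after SDS was -0.083.

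**Figure D2:**
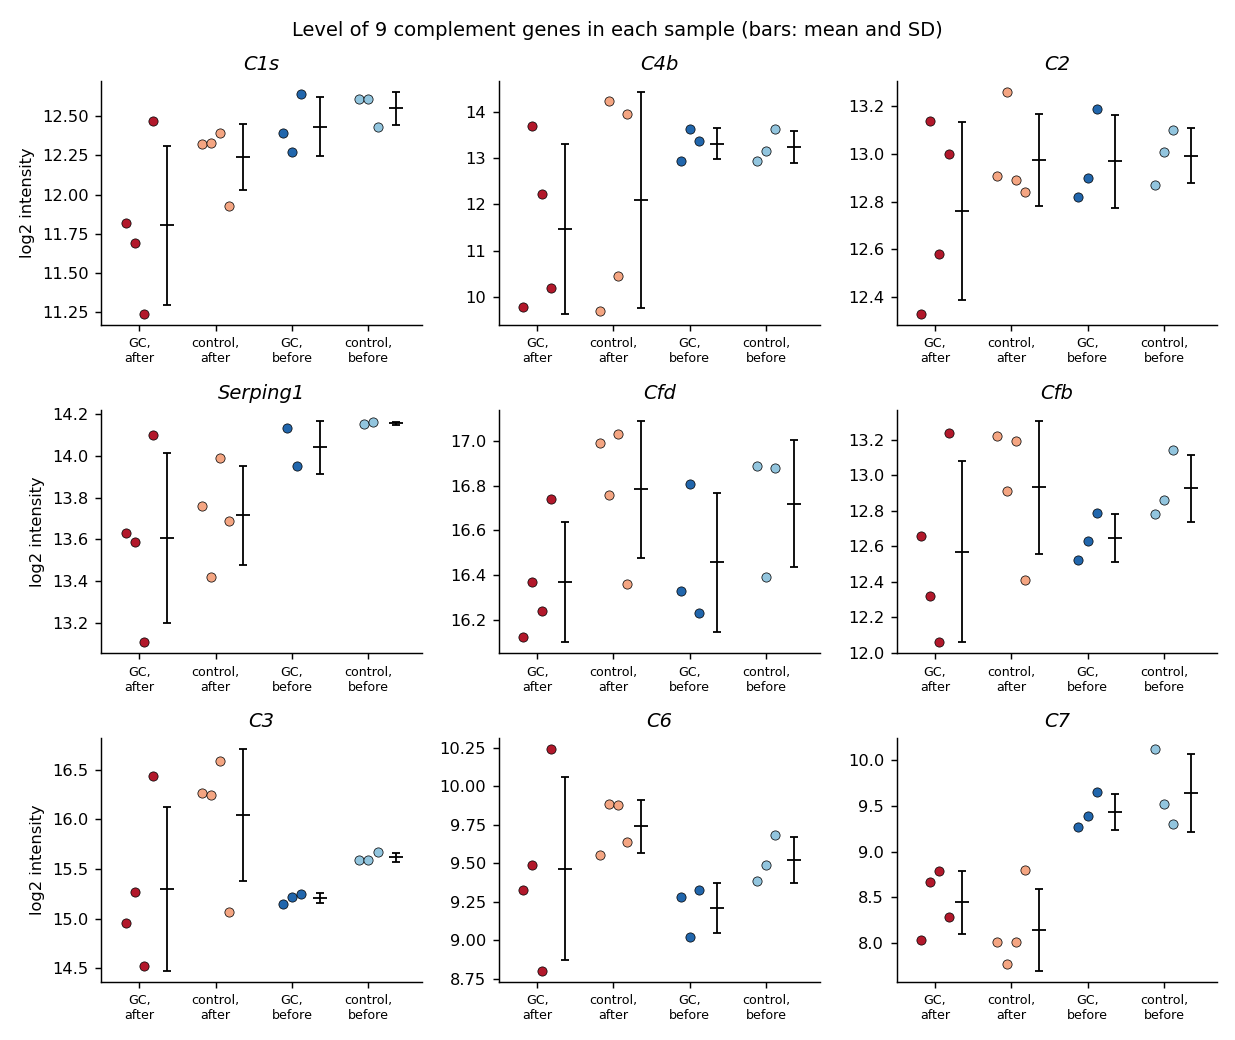
Log2 intensity (vertical axis) of each complement gene in every sample, 1 point per sample, for GC-fed and control-fed skin after SDS (4 samples each) and before SDS (3 each, 2 each for Serping1), with bars for the mean and SD and an axis of its own per gene. C7 is lower after SDS than before in both diets, C3 in control-fed skin is at 16.04 ± 0.67 after SDS and 15.62 ± 0.049 before SDS, and C4b has 4 low samples after SDS.

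The SDS comparison set skin after SDS against skin before SDS within each diet, and C7 was the member whose levels after SDS lay below those before SDS, with no overlap, in both diets. In GC-fed skin C7 was at 8.04, 8.67, 8.78 and 8.29 after SDS, against 9.27, 9.38 and 9.65 before SDS. In control-fed skin it was at 8.01, 7.77, 8.02 and 8.80 after SDS, against 10.12, 9.52 and 9.30 before SDS. The difference was -0.97 (SE 0.26) in GC-fed and -1.51 (SE 0.26) in control-fed skin, which is 0.509 of the before-SDS level in GC-fed and 0.351 in control-fed skin. With the scanner software's processed signals it was -1.42 in GC-fed and -2.30 in control-fed skin. C7 passed at an adjusted p of 0.05, as did 7.13% of all genes as lower in GC-fed and 8.03% as lower in control-fed skin (13.4% and 14.9% in either direction), and the other 8 members did not. The members were chosen on these levels too, so nothing is read from this count. In GC-fed skin C7 was not past the threshold without before-SDS array 2 (-1.02) or 3 (-0.88), or without after-SDS array 1 (-0.85) or 3 (-1.104), and in control-fed skin it was not past it without before-SDS array 1 (-1.175).

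Among the others, C1s stood at -0.61 (SE 0.221) in GC-fed and -0.33 (SE 0.221) in control-fed skin for after minus before SDS. Its level was 11.24 to 12.47 after SDS against 12.27 to 12.64 before SDS in GC-fed skin, and 11.93 to 12.39 against 12.43 to 12.61 in control-fed skin, so it overlapped in the first diet and not in the second. Serping1 was at -0.35 (SE 0.194) in GC-fed and -0.32 (SE 0.194) in control-fed skin. Its missing before-SDS spot was imputed in this fit, so these values and SEs rest in part on an unmeasured sample. Its measured means were 13.61 after SDS (n = 4) and 14.04 before SDS (n = 2) in GC-fed skin. In control-fed skin they were 13.71 (n = 4) and 14.15 (n = 2). C3 was at 0.13 (SE 0.393) in GC-fed and 0.38 (SE 0.393) in control-fed skin. C6 was at 0.25 (SE 0.249) in GC-fed and 0.23 (SE 0.249) in control-fed skin, and Cfb, Cfd and C2 lay between -0.19 and 0.03. C4b was at -1.89 (SE 1.14) in GC-fed skin, the largest difference of the 9 there, and at -1.12 (SE 1.14) in control-fed skin, over samples that split as described next. Leaving out 1 after-SDS array moved C4b in control-fed skin to between -1.957 and -0.326. Groups did not overlap for 1 of the 9 genes in GC-fed skin (23.4% of all genes) and for 3, C1s, Serping1 and C7, in control-fed skin (30.8% of all genes). These shares cover genes measured in every sample, which Serping1 was not. Without array 4, C1s, Serping1 and C7 passed as lower after SDS in GC-fed skin (8.44% of all genes lower, 7.44% higher). In control-fed skin C7 then passed as lower (10.3% lower) and C3 as higher, at 0.82 (11.1% of all genes higher). The members and the array left out were chosen with these values in view, and Serping1 had an imputed spot. Nothing is therefore read from which members passed.

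C4b, the complement C4 gene, split the after-SDS samples of each diet into low and high ones. Its ratio was 0.07, -0.54, 1.76 and -3.79 on arrays 1 to 4 after SDS and -0.01, 0.47 and -0.25 before SDS, which fitted at -0.62 (SE 0.778) after SDS and 0.14 (SE 0.921) before SDS. The after-SDS value was 0.61 without array 4 and -1.71 without array 3. Its level after SDS was 9.77, 13.70, 12.22 and 10.18 in GC-fed skin, against 9.70, 14.24, 10.46 and 13.96 in control-fed skin. Before SDS it was 12.95, 13.63 and 13.38 in GC-fed skin, against 12.95, 13.15 and 13.63 in control-fed skin. Thus 4 of 14 samples, 2 of each diet and all after SDS, lay at 9.699 to 10.46, and the other 10 lay at 12.22 to 14.24, a gap of 1.76 and a range of 23.3-fold over all samples. This split was noticed after the values were seen. Array 1 after SDS held a low sample of each diet and so had a ratio near 0, while arrays 3 and 4 each held 1 low sample, of opposite diets. C4b and C4a are near-identical copies, so a signal of 1 may include the other. A probe that the authors' deposited table names C4a followed C4b over the 14 samples at r = 0.94. That probe was dim, at 7.153 to 8.459, so it is weak as a second measure of the split.

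Several of the genes whose level followed that of C4b over the samples lie near it on the chromosome. Of 1853 genes compared, 35 (1.89%) were among the 100 tested genes on either side of C4b in RefSeq GRCm38.p6, and of the 20 with the strongest correlation over 14 samples 4 (20%) were, or 8 (40%) over the 8 after-SDS samples. The 4 were Agpat1, an enzyme of phospholipid synthesis (r = -0.911), D17H6S56E-5 (r = -0.849), H2-Aa, an MHC class II chain (r = 0.826), and Sik1, a kinase (r = 0.814). These correlations are a description, over samples that share arrays in pairs. D17H6S56E-5 was at 10.47 to 10.93 in the 4 samples low in C4b. It was at 8.66 to 8.98 in 4 others, GC-fed 2 and control-fed 2 and 4 after SDS and GC-fed 2 before SDS, and in the same 4 H2-Eb1, another class II chain, was at 8.559 to 9.002, against 11.04 to 12.44 in the other 10. Cfb and C2 lie in this stretch too and correlated with C4b at r = -0.426 for Cfb and 0.527 for C2. Whether the mice differed in the sequence of this stretch was not tested.

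**Figure D3:**
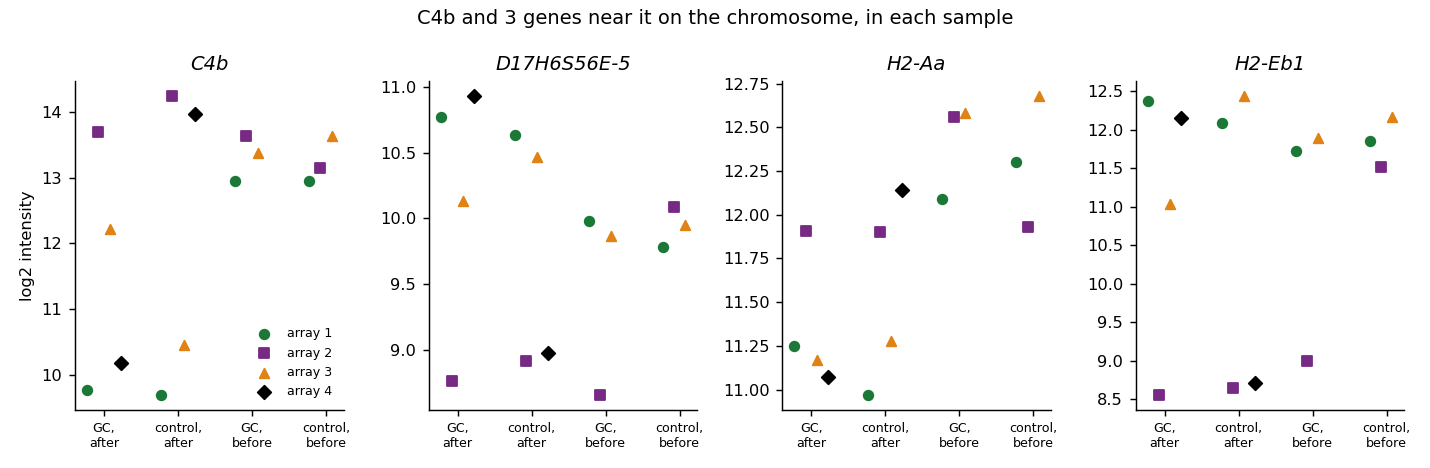
Log2 intensity (vertical axis, its own scale per gene) of C4b and of D17H6S56E-5, H2-Aa and H2-Eb1 in the 14 samples, by diet and SDS, with 1 symbol per array number within its group. The 4 samples low in C4b are GC-fed 1 and 4 and control-fed 1 and 3 after SDS, they are the 4 highest in D17H6S56E-5, and H2-Eb1 falls into a low and a high set of samples.

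With C4b and C7 set apart, a choice made with the ratios in view, the diet ratios of the other genes moved together over the arrays. Their 21 pairs had correlations of 0.491 to 0.989 over 7 arrays (6 where Serping1 was one of the pair), with a median of 0.754 and the top at C3 with Cfb. The 8 pairs with C4b ran from -0.938 to 0.431 (median -0.846), and the 8 with C7 from -0.677 to 0.431 (median -0.516). The arrays fall into sets that differ in sign, and after-SDS array 4 weighs on each of these values. They are therefore given as a description, and nothing is read from their size. Of 2335 well-expressed genes outside the members, the 5 whose ratio was most like the members' mean were Slfn2 (r = 0.988), Slc41a3 (0.977), Ackr3 (0.976), Ifi204 (0.975) and Neurl2 (0.975), each over 7 arrays. The members' mean includes C4b, which was at -3.79 on after-SDS array 4, so the mean there was 0.00188 where the members' median was 0.41. Slfn2, for example, was at -0.558, -0.392, -0.905 and 0.386 on arrays 1 to 4 after SDS.

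Some lists of cell type markers changed sign on after-SDS array 4 as the complement genes did, and others did not. The 12 macrophage and monocyte markers had median ratios of -0.771, -0.735, -0.785 and 0.672 on after-SDS arrays 1 to 4, with 12, 11, 12 and 0 of 12 below 0, and -0.00923, -0.108 and -0.357 before SDS. Their summed intensity was 65429 to 211435 in GC-fed and 70320 to 239779 in control-fed skin after SDS, and 120365 to 152566 in GC-fed and 126494 to 147175 in control-fed skin before SDS. The 5 neutrophil markers measured, of 8 listed, were at -0.291, -0.74, -1 and 1.05 after SDS. The 10 keratinocyte markers, the check of the labelled tissue, were all measured and went the other way, at 0.968, 0.646, 0.625 and -0.651 after SDS. Below 0 on each of the 4 after-SDS arrays were the medians of the 6 mast cell markers (-0.451, -0.125, -0.954 and -0.159), the 10 skeletal muscle markers (-1.02, -0.217, -1.15 and -0.342) and the 8 endothelial markers (-0.0273, -0.0729, -0.431 and -0.0208). The 6 T and NK cell markers measured were at -0.0351, -0.0354, -0.296 and 0.106.

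For Cfd the fat cell list is the nearest. The 12 adipocyte markers had medians of -0.202, -0.301, -0.823 and -0.12 on after-SDS arrays 1 to 4, where Cfd was above 0 on array 4. Below 0 on these arrays were 11, 10, 12 and 9 of the 12. Before SDS the medians were -0.0351, 0.0898 and -0.204, with 6, 5 and 10 of 12 below 0. The sign of the median on each before-SDS array was that of Cfd, though on arrays 1 and 2 the markers were split nearly evenly. Their summed intensity after SDS was 173201 to 209281 in GC-fed skin, against 217572 to 325570 in control-fed skin, with no overlap. This was not particular to fat cells. After SDS the mast cell sums (13732 to 21027 against 22484 to 30687) did not overlap either. The same held for skeletal muscle (278958 to 422950 against 475702 to 657298). Fibroblast sums were apart in the other direction, at 496108 to 585541 in GC-fed and 370044 to 467589 in control-fed skin. The 12 fibroblast markers were at -0.149, 0.0719, -0.056 and 0.46 after SDS. Of 10 liver markers 3 were measured, Cyp2e1, Ahsg and Alb, which were well above background in 14, 13 and 9 of 14 channels, while Apoa1, Apoa2, Ttr, Fgb and Fga were well above background in 0 channels. The part of these cell types in the complement ratios was not tested, and in whole skin fewer cells of a type and less RNA per cell cannot be told apart.

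**Figure D4:**
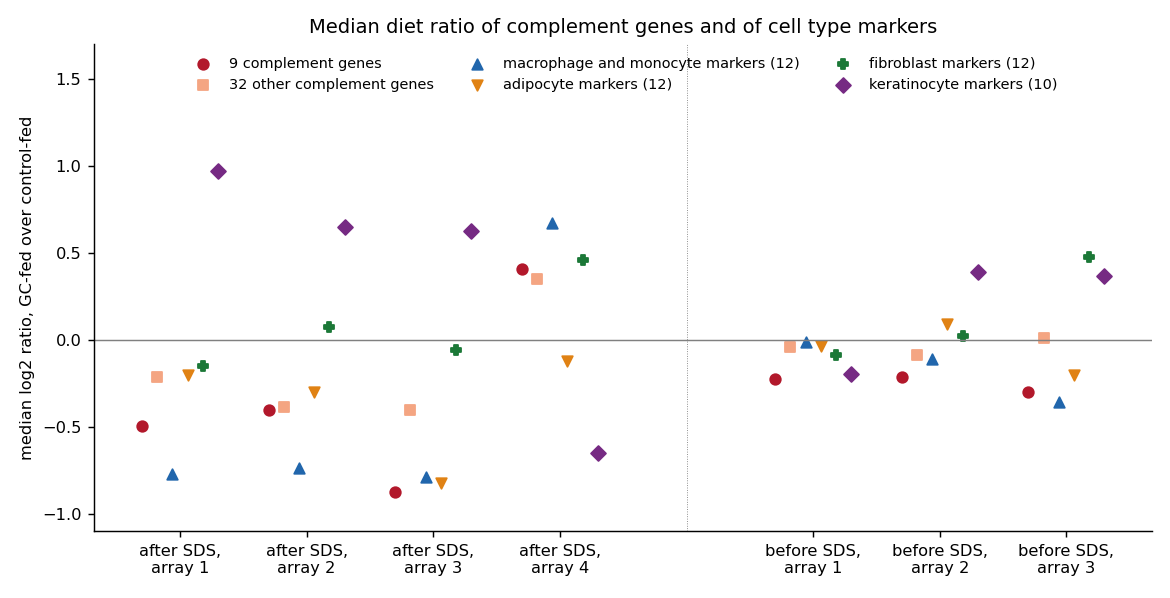
Median diet ratio on a log2 scale, GC-fed over control-fed (vertical axis), on each array (horizontal axis), after SDS on the left and before SDS on the right, for the 9 complement genes, 32 other complement genes and 4 lists of cell type markers. On after-SDS arrays 1 to 3 the complement genes and macrophage markers lie below 0 and the keratinocyte markers above it, and on array 4 the signs are turned.

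Of 45 other genes of the pathway that were listed, 32 were measured and C1rb had no probe of that name. A further 12 had a probe but were not above background, among them C4a, C8a, C8b, C9, Mbl1 and Mbl2. For diet 0 of the 32 passed after SDS, before SDS or for the difference (limma, 0 also at an unadjusted p under 0.05), against 0% of all genes. Their median was -0.127 after SDS with 28 of 32 below 0, and -0.0464 before SDS with 21 of 32 below 0. Per array the median was -0.214, -0.387, -0.404 and 0.348 after SDS. Without array 4, 12 of the 32 passed as lower in GC-fed skin after SDS and 0 as higher, beside 3.95% and 1.46% of all genes. Among these were the C1q chains C1qa, C1qb and C1qc, the protease C1ra, the regulator Cfp, the receptors C3ar1, Itgam, Itgax, Itgb2 and Cd93, and the collectin Colec12. The list was written with earlier results known and the array was left out for opposing the rest, so nothing is read from this count.

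Among the recognition and regulator genes, genes with the lowest p for diet in each direction were as follows, and 0 of them reached an unadjusted p of 0.05. C1qb, a chain of the C1q that opens the classical pathway, was at -0.493, -0.386, -1.59 and 0.191 on arrays 1 to 4 after SDS and at -0.18, -0.514 and -0.717 before SDS, and fitted at -0.57 (SE 0.252) and -0.42 (SE 0.298). C1qb was therefore lower in GC-fed skin on 3 of 3 before-SDS arrays, as C3 was. Cd93, a membrane protein of endothelial and myeloid cells, was at -0.775, -0.66, -0.823 and 0.366 after SDS and fitted at -0.47 (SE 0.206), while its second probe averaged 0.00669. On the positive side stood Susd4 at 0.15 (SE 0.0944) and Clu, clusterin, at 0.15 (SE 0.167) after SDS, and C8g at 0.09 (SE 0.104) and Cd59b at 0.05 (SE 0.0694) before SDS.

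Receptor subunits for cleaved C3 had the widest diet ratios of the list. Itgax, a chain of complement receptor CR4, was at -1.06, -2.37, -2.42 and 1.57 on arrays 1 to 4 after SDS and at 0.707, 0.0917 and 0.136 before SDS. Itgb2, the chain it shares with other leukocyte integrins, was at -1.27, -2.06, -1.89 and 1.49 after SDS and at 0.331, -0.0949 and 0.219 before SDS. A second Itgax probe averaged -0.0431 after SDS and 0.0158 before SDS, so the 2 Itgax probes disagreed. The sign of the probes used on each after-SDS array was that of C3, and before SDS their ratios were mostly above 0, where C3 was below it. For after minus before SDS the smallest p-values were those of Itgax at -1.29 (SE 0.961) and Cd59b at -0.17 (SE 0.0909) on the negative side, and of Masp2 at 0.15 (SE 0.132) and Clu at 0.27 (SE 0.259) on the positive side.

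For SDS, Masp1, a protease of the lectin pathway, passed as higher in both diets with the probe used, and Cd93 did in control-fed skin. Masp1 was at 10.75 ± 0.24 after SDS and 10.2 ± 0.1 before SDS in GC-fed skin (SD, n = 4 and 3), a difference of 0.59 (SE 0.129, adjusted p = 0.0147, limma). In control-fed skin it was at 10.79 ± 0.2 after SDS and 10.06 ± 0.22 before SDS, a difference of 0.70 (SE 0.129, adjusted p = 0.00607, limma). A second Masp1 probe differed by 0.0288 in GC-fed and -0.0456 in control-fed skin, so the 2 probes disagreed. Cd93 was at 11.67 ± 0.23 after SDS and 11.03 ± 0.081 before SDS in control-fed skin, a difference of 0.63 (SE 0.177, adjusted p = 0.0339, limma), with 0.311 from its second probe, and in GC-fed skin the difference was 0.24 (SE 0.177). The 2 differences of Cd93 set against each other, at -0.39 (SE 0.318) for GC-fed minus control-fed, did not pass. So 1 of 32 genes rose in GC-fed and 2 of 32 in control-fed skin, where 6.24% and 6.82% of all genes rose. In both diets 0 of the 32 fell, where 7.13% of all genes fell in GC-fed and 8.03% in control-fed skin. The list was written with earlier results known, so nothing is read from these counts. Without before-SDS array 3 the number that rose in GC-fed skin was 0, and without before-SDS array 1 that in control-fed skin was 0. Without after-SDS array 4 Masp1 rose and C1qb fell in GC-fed skin (7.44% of all genes higher, 8.44% lower). In control-fed skin 8 genes then rose (11.1% of all genes higher) and 0 fell (10.3% lower). Leaving out before-SDS array 2 or 3, or after-SDS array 1, 2 or 3, gave 1 gene that rose in control-fed skin.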

How the data were processed

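RNA of 14 skin samples was measured on 7 Agilent arrays of 2 colours. Per the file headers, the deposited scanner files give each spot's mean intensity, local background and a processed intensity, corrected for background and dye, from Agilent Feature Extraction 9.1.3.1. The authors' deposited table per gene holds intensity with a floor of 200 and a log2 ratio; it served as an alternative, with 11304 of 13088 genes used.

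Mean signals were corrected by normexp (offset 50) and loess within arrays in limma 3.58.1 (R 4.3.3), with control spots at weight 0. Outlier spots (4 to 27 per array) were left out. Probes well above background in 3 or more of 14 channels were kept, and the brightest probe of a gene was used, which gave 17111 genes.

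Diet effects came from 1 limma fit over the 7 arrays, with a term for the dye. SDS effects came from a separate-channel fit of 4 groups with the same term, after Aquantile normalization. Benjamini-Hochberg adjustment covered all genes. Precision is limited by the number of arrays. The fits were tested on simulated data.

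The 9 genes, the list of 45 and the marker lists were chosen with earlier results of these data known. All 9 members were named, and of the 45 those that passed or, where none did, the 2 with the smallest p in each direction. Itgb2, H2-Eb1 and the genes that passed without array 4 were named after their values were seen. One gene that the rule would name is not reported here.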

Additional observations from a re-analysis of the deposited data

Results flagged for a closer look

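In 27 sets of 4 after-SDS values, 3 for each of the 9 genes, the most distant value was checked against the other 3, and 2 sets had one that stood apart, where chance gives about 1 set in 20. The level of C1s in control-fed skin after SDS was 11.93 on array 4, against 12.32, 12.33 and 12.39 on arrays 1 to 3, so that the gap made up 0.839 of the range. The level of C2 in control-fed skin after SDS was 13.26 on array 2 and 12.84 to 12.91 on the others, where the gap made up 0.834 of the range.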

How the results depend on the processing

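The genes passing for SDS numbered 2288 in GC-fed and 2541 in control-fed skin; with processed signals the first was 1324, in the authors' deposited table they were 26 and 411, and leaving out 1 array gave 538 to 2717 and 121 to 3661. For diet, leaving out 1 array gave 0 to 926 genes after SDS and 0 to 56 for after minus before SDS, the highest being without after-SDS array 4. Of the other complement genes, 0 passed for SDS in GC-fed and 1 in control-fed skin with processed signals, 0 and 0 in the authors' deposited table, and 1 in control-fed skin with no filter on dim probes; leaving out 1 array gave 0 to 2 in GC-fed skin, 0 to 8 in control-fed skin, 0 to 12 for diet after SDS and 0 to 1 for after minus before SDS. The members' median diet ratio before SDS was -0.1796 with median centring and -0.2902 in the authors' deposited table. Leaving out 1 array, the members' median ran from -0.657 to -0.083 after SDS, -0.286 to -0.197 before SDS, -0.374 to 0.289 for after minus before SDS, -0.366 to -0.101 for SDS in GC-fed and -0.191 to 0.0332 in control-fed skin. The ratios of same-numbered arrays before and after SDS correlated over genes at r = -0.086, -0.045 and 0.19. The before-SDS arrays correlated at -0.41 to 0.23 among themselves, so these values cannot settle whether the arrays pair. With the replicate block, 1345 genes passed for SDS in GC-fed and 1520 in control-fed skin. With the block, 1 of the other complement genes passed in control-fed skin, and the members' median for after minus before SDS was -0.4175. That block fit used the correlation within spots of the fit without the block. The cause of these moves was not tested. Among single values of the 9 genes under the alternatives, the sign changed for 4 of 126 after SDS, 4 of 126 before SDS, 19 of 135 for after minus before SDS, 9 of 144 for SDS in GC-fed and 14 of 144 in control-fed skin.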
